A study of Mus musculus with 9 samples.

Results

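The dual-specificity MAP kinase phosphatases described here are 10 genes, Dusp1, Dusp2, Dusp4, Dusp5, Dusp6, Dusp7, Dusp8, Dusp9, Dusp10 and Dusp16. They were taken by gene symbol from the probe table of the array platform, which gave 11 of 26423 probes and 10 of the 17742 named genes. Dusp16 has 2 probes and each of the others has 1. Colon RNA of female BALB/c mice was hybridised to 9 arrays, 3 for each of 3 groups. On day 1 Vanillin mice received an intraperitoneal injection of the colon carcinogen azoxymethane (AOM, 12.5 mg/kg). Starting on day 8, their water held 2.5% dextran sodium sulfate (DSS), an agent toxic to the lining of the colon, for 5 days. A period of 16 days on plain water came next, and there were 3 additional cycles. By mouth they also took vanillin, the phenolic aldehyde of vanilla flavour, at 100 mg/kg for 91 days. Sham mice had the same AOM and DSS course without vanillin, so the name does not mean an untreated animal. Mock mice were untreated. Neither the mice's age nor the part of the colon sampled is known from the labels. The labels do not say that the 3 arrays of a group came from separate mice, so the p-values rest on array-to-array spread that may be technical.

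MAP kinases are switched on when an upstream kinase phosphorylates both a threonine and a tyrosine in their activation loop. The dual-specificity phosphatases remove both phosphates and switch the kinase off. Many of them are transcribed in response to the pathway they restrain, so that ERK activity raises the mRNA of its own inhibitors. DUSP1, DUSP2, DUSP4 and DUSP5 are nuclear enzymes encoded by inducible early genes. DUSP6, DUSP7 and DUSP9 are cytoplasmic and act mainly on ERK. DUSP8, DUSP10 and DUSP16 act mainly on JNK and p38, the stress-activated kinases. In the intestine ERK signalling is known for driving epithelial proliferation, and DUSP1 for limiting cytokine production by myeloid cells.

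The deposited values are probe intensities on a linear scale, normalized by the authors so that the arrays share nearly 1 distribution. The median intensity per array was 319.6 to 320.1, and the arrays correlated at 0.995 to 0.998 within groups and at 0.926 to 0.973 between groups. Changes are differences of mean log2(intensity + 16), with their standard error (SE) from limma fitted to all probes. "Called" means an adjusted p under 0.05 (Benjamini-Hochberg over 26423 probes). Intensities of different probes are not comparable with each other, so levels are compared only between groups. Sums over a list of markers weigh its brightest probes most, and their group order need not be that of most markers. Counts of markers that rose or fell are therefore given beside the sums. All 14 measured markers of colonocytes and goblet cells had mean intensities above 50 in each group, a level under which about 20.0% of probes lie. The groups also differed in markers of other tissues, whose values are given beside the results they move with.

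In Sham against Mock colons, 9 of the 10 phosphatase genes were called, 4 higher and 5 lower. Counts take Dusp16 from its brighter probe, and the 4 include it although its second probe was called lower in this comparison. Of all 17742 named genes 64.6% were called in this comparison, 39.3% higher and 25.3% lower, so a count of 9 is not far from what most genes did. In Vanillin against Sham, 7 of 10 were called, 4 higher and 3 lower, where 52.5% of all named genes were called, 17.4% higher and 35.1% lower. In Vanillin against Mock, 7 of 10 were called, 5 higher and 2 lower, where 55.3% of all named genes were called, 26.8% higher and 28.5% lower. The arrays of the groups did not overlap for 10 of 10 genes in Sham against Mock, where 71.6% of all named genes had no overlap, for 7 of 10 in Vanillin against Sham (60.5% of all) and for 7 of 10 in Vanillin against Mock (65% of all). The median log2 change of the 10 genes was 0.17 between Sham and Mock, -0.04 between Vanillin and Sham, and 0.55 between Vanillin and Mock. Over all named genes these medians were 0.11, -0.11 and -0.001. Members differed in direction. Dusp4, Dusp6 and Dusp9 were higher in both groups on AOM and DSS, Dusp1 and Dusp5 were highest with vanillin, and Dusp8 was lower in both groups.

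**Figure D1:**
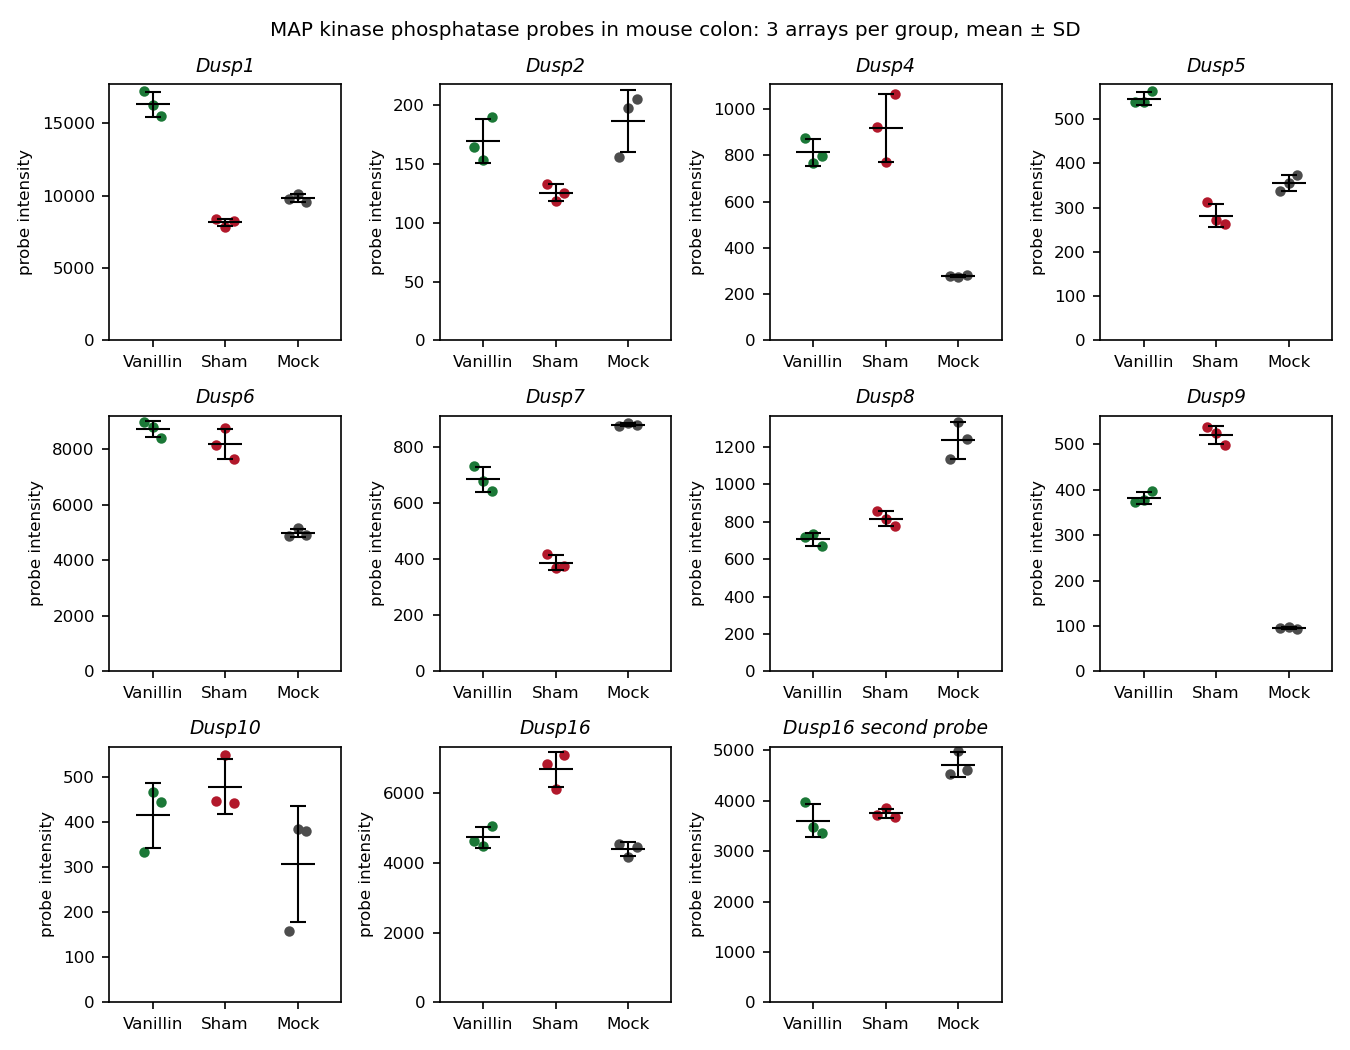
Intensity (linear axis from 0) of the 11 phosphatase probes in each array, with Vanillin, Sham and Mock from left to right. Points are arrays, and bars are the mean ± SD of 3 arrays. Dusp9 lies at 372 to 397 in Vanillin and 498 to 538 in Sham, against 93.1 to 97.4 in Mock, and Dusp1 lies at 15477 to 17197 in Vanillin, above every Sham and Mock array.

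Among the nuclear enzymes, DUSP1 inactivates mainly p38 and JNK and is a classical immediate early gene product. Dusp1 had intensities of 17197, 16272 and 15477 in Vanillin, 8348, 7854 and 8247 in Sham and 9784, 10109 and 9563 in Mock. The 3 groups did not overlap, and Vanillin stood far above the other groups. Dusp1 was 1.00 higher in Vanillin minus Sham (SE 0.055, limma adjusted p = 9.7e-07), with mean intensities of 16315 ± 861 in Vanillin and 8149 ± 261 in Sham (SD, n = 3 each). It was 0.73 higher in Vanillin minus Mock (adjusted p = 5.0e-06). In Sham minus Mock it was lower, at -0.27 (adjusted p = 0.0022). The size of the Vanillin minus Sham change exceeded that of 95.4% of all probes. In bulk tissue, more mRNA per cell and more cells that express a gene cannot be told apart.

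DUSP5 is a nuclear phosphatase selective for ERK. Dusp5 had intensities of 537, 538 and 562 in Vanillin, 312, 272 and 262 in Sham and 336, 356 and 373 in Mock. As with Dusp1, no groups overlapped and the order was Vanillin, Mock, Sham from high to low. Dusp5 was 0.92 higher in Vanillin minus Sham (SE 0.070, adjusted p = 9.5e-06) and 0.60 higher in Vanillin minus Mock (adjusted p = 9.5e-05). It was lower in Sham minus Mock, at -0.32 (adjusted p = 0.0035).

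Since Dusp1 and Dusp5 had the same order of groups, the 250 bases before their annotated starts are shown, from RefSeq (GRCm38.p6), 5′ to 3′ on the gene's strand. The Dusp1 window is chr17:26508473-26508722 on the minus strand and the Dusp5 window is chr19:53528895-53529144 on the plus strand. Each ends directly before the first base of its gene. Capitals mark matches, on either strand, to TGACG (a short form of the cAMP response element, CRE), to TGANTCA (AP-1), to CCGGAAG (ETS factors) and to the CArG box bound by serum response factor.
Dusp1: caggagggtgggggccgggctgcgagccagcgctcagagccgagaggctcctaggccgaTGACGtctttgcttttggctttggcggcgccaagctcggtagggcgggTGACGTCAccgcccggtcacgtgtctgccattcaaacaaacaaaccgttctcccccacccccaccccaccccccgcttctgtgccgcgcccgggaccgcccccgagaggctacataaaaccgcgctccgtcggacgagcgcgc
Dusp5: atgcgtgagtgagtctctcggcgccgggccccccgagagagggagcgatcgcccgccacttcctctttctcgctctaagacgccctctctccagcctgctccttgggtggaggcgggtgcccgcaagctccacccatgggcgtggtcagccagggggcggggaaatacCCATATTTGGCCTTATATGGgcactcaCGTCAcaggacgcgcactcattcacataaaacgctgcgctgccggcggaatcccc
The Dusp1 window holds the full CRE, TGACGTCA, at bases -143 to -136 from the start, and another TGACG at -191 to -187. The full CRE contains TGACG on both strands, so these matches overlap. Of 32851 windows of the same length, 1.55% hold the full CRE and 17.8% hold TGACG. This set, meant by all windows below, leaves out a chromosome that holds none of the phosphatase genes. The Dusp5 window holds a pair of adjacent CArG boxes at bases -82 to -73 and -72 to -63, and TGACG on the other strand at -55 to -51. A CArG box is present in 1.47% of all windows. Windows were at hand for Dusp1, Dusp2, Dusp5, Dusp6, Dusp7, Dusp8, Dusp10 and Dusp16, and none of these 8 matched TGANTCA (6.75% of all windows) or CCGGAAG (6.91%). The windows of Dusp7, Dusp8 and Dusp16 lie wholly or partly inside the annotated gene, so their positions count from another start than the gene's first base. On that count the Dusp8 window holds the full CRE at -107 to -100 and at -63 to -56, and Dusp8 values were lowest in Vanillin. The Dusp16 window holds TGACG at -70 to -66, on the same count. TGACG is thus not particular to Dusp1 and Dusp5, since Dusp8 and Dusp16 had other group orders. The matches describe letters only, and binding was not measured.

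DUSP4, the relative of DUSP1 that acts on ERK and JNK, followed another course. Dusp4 had intensities of 875, 764 and 797 in Vanillin, 923, 770 and 1064 in Sham and 277, 275 and 282 in Mock. Every array of the groups on AOM and DSS lay far above Mock, and Vanillin and Sham overlapped. Dusp4 rose by 1.66 in Sham minus Mock (SE 0.11, adjusted p = 9.45e-07), or 3.31-fold, and by 1.49 in Vanillin minus Mock (adjusted p = 3.5e-06). Vanillin minus Sham was -0.17 (SE 0.11, adjusted p = 0.23) and not called, but without Sham replicate 2 it was -0.28 and called (adjusted p = 0.023). The 3 genes whose centred log2 profile over the 9 arrays lay closest to Dusp4, of 16610 searched, were Marco, Vcam1 and Erfe (root mean square distances 0.082, 0.082 and 0.084).

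DUSP2, also called PAC1, is a nuclear phosphatase known from activated leukocytes. Dusp2 was dim, with intensities of 164, 154 and 190 in Vanillin, 133, 119 and 125 in Sham and 156, 197 and 206 in Mock. Sham lay below both other groups, which overlapped. Dusp2 fell by 0.51 in Sham minus Mock (SE 0.11, adjusted p = 0.0027). It was 0.39 higher in Vanillin minus Sham (adjusted p = 0.016), a call lost without Sham replicate 2 (adjusted p = 0.053) or Vanillin replicate 3 (adjusted p = 0.057). Vanillin minus Mock was -0.12 (adjusted p = 0.37) and was called only with array weights (-0.28, adjusted p = 0.014), among the 18 alternatives run. The 9 measured T and NK cell markers moved in both directions, with 6 higher and 3 lower in Sham minus Mock, and 4 higher, 3 lower and 2 not called in Vanillin minus Sham. Cd247, Nkg7 and Cd3g, the 3 that fell in Sham minus Mock (-1.26, -0.78 and -0.78), rose in Vanillin minus Sham (0.99, 0.72 and 0.85), while the brighter Cd3e and Gzmb did the opposite. The summed intensity of the 9 was 6335 to 6626 in Vanillin, 7686 to 8026 in Sham and 3810 to 3912 in Mock. Their part in the Dusp2 values was not tested.

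Among the cytoplasmic ERK phosphatases, DUSP6 is the feedback inhibitor whose mRNA is widely used as a readout of ERK activity. Dusp6 had intensities of 8964, 8783 and 8408 in Vanillin, 8153, 8751 and 7650 in Sham and 4889, 5147 and 4910 in Mock. Both groups on AOM and DSS lay above Mock and overlapped with each other. Dusp6 rose by 0.71 in Sham minus Mock (SE 0.060, adjusted p = 6.4e-06), or 1.64-fold, and by 0.81 in Vanillin minus Mock (adjusted p = 4.7e-06). The Vanillin minus Sham value was 0.09 (SE 0.060, adjusted p = 0.24), and none of the 18 alternatives called it.

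DUSP9, a close relative of DUSP6 known for its role in the placenta, showed the largest change of the 10 genes in Sham minus Mock. Dusp9 had intensities of 372, 377 and 397 in Vanillin, 538, 524 and 498 in Sham and 96.6, 97.4 and 93.1 in Mock. No groups overlapped, and Mock was the low group. Dusp9 rose by 2.26 in Sham minus Mock (SE 0.049, adjusted p = 5.3e-10), or 5.44-fold in mean intensity. This size depends on the value added before the logarithm, and over the alternatives it was 1.87 to 2.43. It fell by 0.43 in Vanillin minus Sham (adjusted p = 0.00013) and was still 1.83 higher in Vanillin minus Mock (adjusted p = 8.3e-09). The genes with the closest profiles were Nxpe3, Kif5c and the Wnt pathway gene Axin2 (distances 0.058, 0.061 and 0.062). Axin2 had mean intensities of 3153 in Vanillin, 4454 in Sham and 898 in Mock.

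DUSP7 is the third cytoplasmic ERK phosphatase. Dusp7 had intensities of 734, 680 and 645 in Vanillin, 418, 369 and 377 in Sham and 876, 887 and 881 in Mock. No groups overlapped, and the order was the reverse of that of Dusp9. Dusp7 fell by 1.15 in Sham minus Mock (SE 0.065, adjusted p = 3.8e-07). It was 0.80 higher in Vanillin minus Sham (adjusted p = 1.4e-05) and 0.36 lower on the log2 scale in Vanillin than in Mock (-0.36, adjusted p = 0.0015). The closest profiles were those of Pth1r, Dpep1 and Slc16a7 (distances 0.039, 0.050 and 0.064). Dusp4, Dusp7 and Dusp9 were the members whose group means spanned at least 1 on the log2 scale, the limit for this search, and Dusp1 fell just short of it at 0.999.

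Markers of other tissues had the same order of groups as Dusp7, with Mock high and Sham low. The summed intensity of 15 squamous epithelium markers was 341281 to 391090 in Vanillin, 32442 to 33585 in Sham and 633088 to 635060 in Mock. All 15 fell in Sham minus Mock, and 14 rose in Vanillin minus Sham. None was at 0, but Krt1, Ivl, Dsg3, Sprr1b and Krtdap had mean intensities below 50 in Sham. At the other end, the highest intensity per array was 65509.1 to 65509.7. Krt10 lay near it, at 65446 in Mock and 65464 in Vanillin, as did other keratin probes in Mock. So did the squamous marker Lor in Vanillin (65136) and the adipocyte marker Car3 in Mock (64051.5) and Vanillin (62592). Differences between groups may be compressed there. The 12 adipocyte markers summed to 173262 to 181367 in Vanillin, 26654 to 27659 in Sham and 194618 to 199994 in Mock. In Sham minus Mock 10 of these fell and 2 rose, and in Vanillin minus Sham 10 rose and 2 fell. The 8 skeletal muscle markers summed to 53988 to 58485 in Vanillin, 2989 to 3171 in Sham and 146882 to 155197 in Mock. All 8 fell in Sham minus Mock. The part of these tissues in the values of Dusp7 and Dusp2, and in the lower Sham values of Dusp1 and Dusp5, was not tested.

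**Figure D2:**
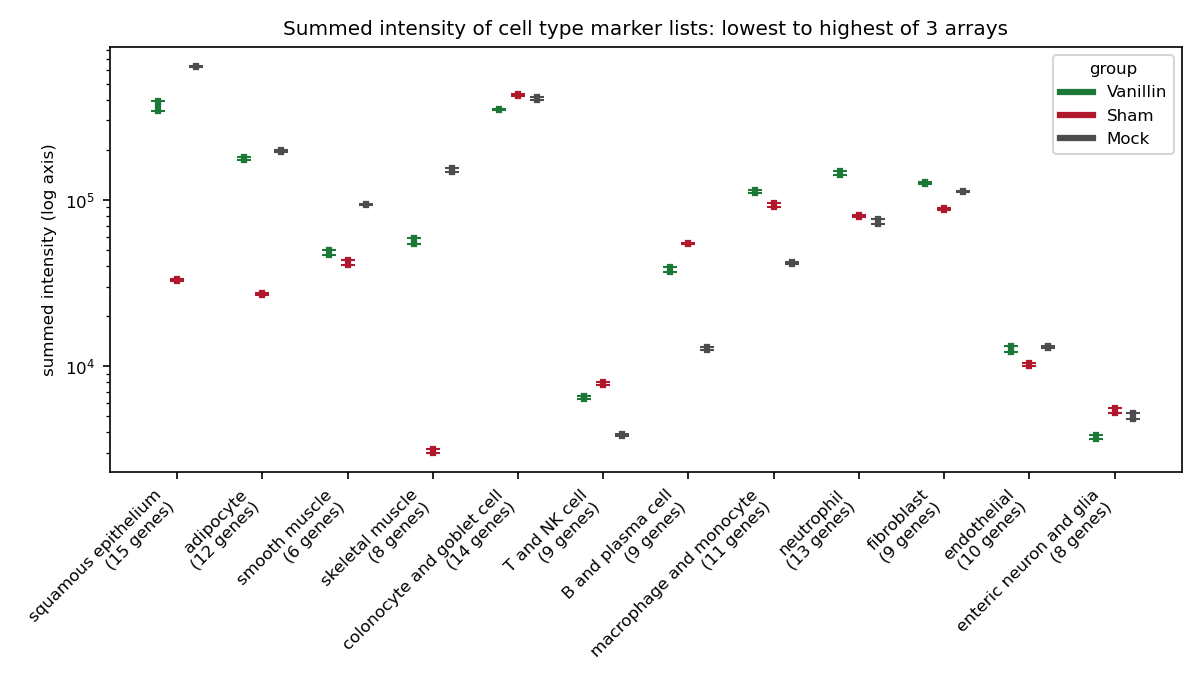
Summed intensity (log axis) of each list of cell type markers, with Vanillin, Sham and Mock from left to right within a list. Bars run from the lowest to the highest of 3 arrays, and the number of measured genes is given under each name. Squamous epithelium markers lie at 32442 to 33585 in Sham, and neutrophil, macrophage and fibroblast markers are highest in Vanillin.

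Vanillin had the highest sums for myeloid and fibroblast markers, the group order at the top that Dusp1 and Dusp5 also had. The 13 neutrophil markers summed to 140594 to 148835 in Vanillin, 78831 to 80623 in Sham and 71408 to 76546 in Mock, and 11 of the 13 rose in Vanillin minus Sham. Most had already risen in Sham minus Mock, where 10 rose and 3 fell (median 2.31). The bright Ltf, with mean intensities of 6496 in Sham and 41218 in Mock, was among the 3, so the sums hide that rise. The 11 macrophage and monocyte markers summed to 109756 to 114786 in Vanillin, 89858 to 95134 in Sham and 41324 to 42354 in Mock, with 6 higher and 2 lower in Vanillin minus Sham. In Sham minus Mock 6 of these were higher, 2 lower and 3 not called. The 9 fibroblast markers summed to 124160 to 128451 in Vanillin, 86354 to 89074 in Sham and 111439 to 112628 in Mock, and 7 of them rose in Vanillin minus Sham. In Sham minus Mock 3 rose, 4 fell and 2 were not called (median -0.04), so most of them did not share the lower Sham sum. The neutrophil marker S100a9 (62191.5) and the fibroblast marker Dcn (65046) lay near the top of the intensity scale in Vanillin. Whether these cells carry the Dusp1 and Dusp5 values was not tested. The sums of T and NK cell markers given above had the group order of Dusp9, and so did those of the 9 B and plasma cell markers, with sums of 36630 to 39168 in Vanillin, 54426 to 55157 in Sham and 12489 to 13000 in Mock. In Sham minus Mock 6 of them rose, 1 fell and 2 were not called, and in Vanillin minus Sham 5 fell and 4 were not called. The 14 colonocyte and goblet cell markers summed to 346274 to 353956 in Vanillin, 423384 to 429929 in Sham and 397731 to 413046 in Mock. Of these, 6 rose, 3 fell and 5 were not called in Sham minus Mock. Between Vanillin and Sham, 10 fell and 4 were not called. Clca1 lay near the top of the intensity scale in every group (63797 in Vanillin, 65495 in Sham and 64111 in Mock), where differences may be compressed. The intestinal transcription factor gene Cdx2, named after its values were seen, had mean intensities of 2783 in Vanillin, 4265 in Sham and 473 in Mock, which is the order of Dusp9. The mature colonocyte genes Slc26a3, Car4 and Car1, the 3 that fell in Sham minus Mock, had changes of -2.98, -2.60 and -1.37. The part of these cell types in the Dusp4, Dusp6 and Dusp9 values was not tested.

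Among the JNK and p38 phosphatases, Dusp8 was lower in both groups on AOM and DSS. Its intensities were 717, 734 and 667 in Vanillin, 857, 815 and 776 in Sham and 1133, 1330 and 1242 in Mock. No groups overlapped. Dusp8 fell by 0.59 in Sham minus Mock (SE 0.071, adjusted p = 8.1e-05) and by 0.79 in Vanillin minus Mock (adjusted p = 1.7e-05). The Vanillin minus Sham value of -0.20 was called narrowly (SE 0.071, adjusted p = 0.041). It was not called with the replicate number as a block (adjusted p = 0.052), nor without Mock replicate 3 (0.062), Sham replicate 1 (0.12) or 2 (0.085), or Vanillin replicate 1 (0.063), 2 (0.054) or 3 (0.13). All 6 measured smooth muscle markers were also called lower in Sham and in Vanillin than in Mock. Of these, 4 rose and 2 were not called in Vanillin minus Sham. They summed to 46551 to 49840 in Vanillin, 40406 to 43125 in Sham and 93504 to 94877 in Mock. Acta2 among them lay near the top of the intensity scale in Mock (65427.5). The part of smooth muscle in the values of Dusp8 and of the second Dusp16 probe was not tested.

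DUSP16 binds JNK and shuttles between nucleus and cytoplasm, and its 2 probes disagreed. The brighter one had intensities of 4617, 4489 and 5060 in Vanillin, 6828, 6121 and 7084 in Sham and 4534, 4175 and 4462 in Mock. Sham stood above both other groups, which overlapped. This probe rose by 0.60 in Sham minus Mock (SE 0.072, adjusted p = 7.7e-05) and fell by 0.50 in Vanillin minus Sham (adjusted p = 0.00050). The second probe had 3976, 3485 and 3362 in Vanillin, 3717, 3849 and 3680 in Sham and 4526, 4990 and 4616 in Mock. There Mock stood above both other groups. The second probe fell by 0.33 in Sham minus Mock (SE 0.071, adjusted p = 0.0032) and by 0.39 in Vanillin minus Mock (adjusted p = 0.0016), and its Vanillin minus Sham value was -0.06 (adjusted p = 0.54). In Vanillin minus Mock the brighter probe was at 0.10 (adjusted p = 0.26). With both probes averaged, Dusp16 changed by 0.14 in Sham minus Mock, -0.28 in Vanillin minus Sham and -0.14 in Vanillin minus Mock, each of them called (adjusted p = 0.030, 0.0011 and 0.031). Which transcripts each probe detects was not analysed here, and no single direction is given for Dusp16 in Sham minus Mock.

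DUSP10 restrains p38 and JNK in innate and adaptive immune cells. Dusp10 had intensities of 333, 467 and 446 in Vanillin, 446, 549 and 443 in Sham and 158, 384 and 380 in Mock. Mock replicate 1 lay far below the other Mock arrays, and this spread (SD 0.69 on the log2 scale) is the widest of the 11 probes in any group. Sham minus Mock was 0.71 (SE 0.30, unadjusted p = 0.043, adjusted p = 0.069) and not called, although the arrays did not overlap. Without Mock replicate 1 it was 0.31 (adjusted p = 0.11), so the size rests on that array. Without Mock replicate 2 or 3, or with the replicate number as a block, it was called (0.91, 0.90 and 0.71, adjusted p = 0.038, 0.041 and 0.025). Vanillin minus Sham (-0.21, adjusted p = 0.60) and Vanillin minus Mock (0.50, adjusted p = 0.20) were not called.

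**Figure D3:**
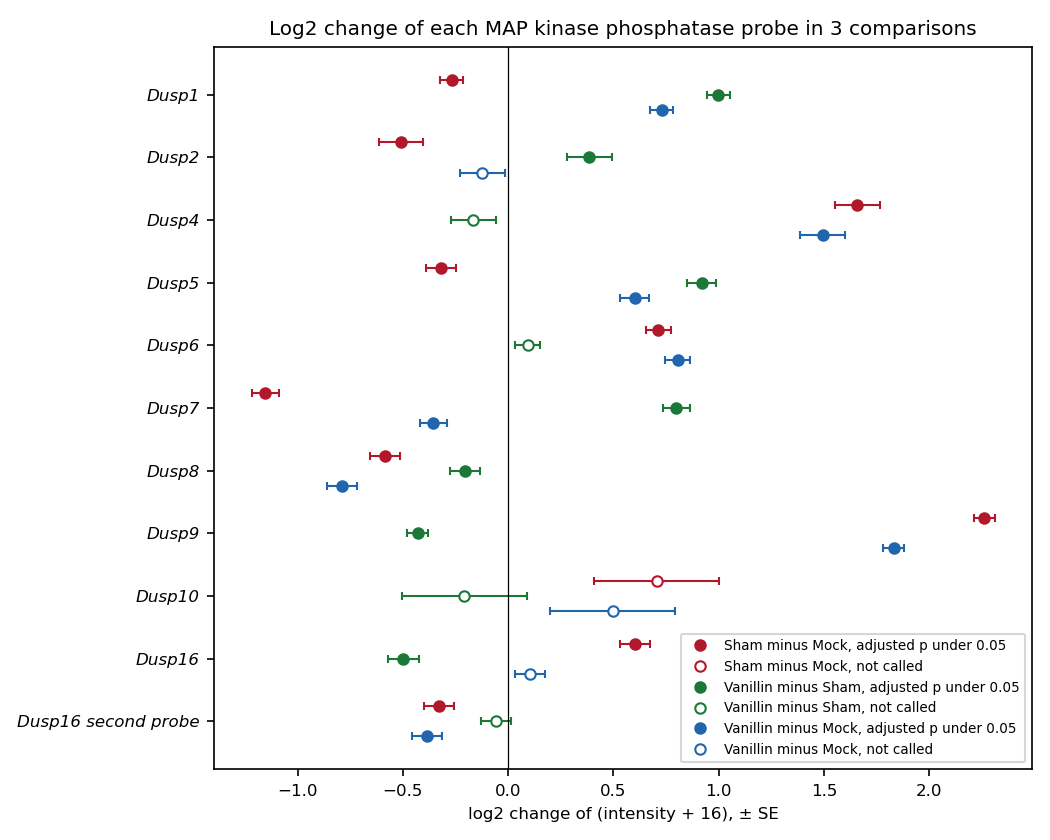
Log2 change of each phosphatase probe (x axis, difference of mean log2(intensity + 16), with SE bars) in the 3 comparisons, which are drawn in different colours. Filled points were called and open points were not. Dusp4, Dusp6 and Dusp9 lie right of 0 in both comparisons with Mock, while Dusp1 and Dusp5 lie left of 0 in Sham minus Mock and right of 0 in both Vanillin comparisons.

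By role, the 4 nuclear enzymes gave 1 called higher and 3 called lower in Sham minus Mock, and 3 higher and 1 not called in Vanillin minus Sham. The 3 cytoplasmic ERK phosphatases gave 2 higher and 1 lower in Sham minus Mock, and 1 higher, 1 lower and 1 not called in Vanillin minus Sham. The 3 JNK and p38 phosphatases gave 1 higher (Dusp16, on its brighter probe only), 1 lower and 1 not called in Sham minus Mock, and 2 lower and 1 not called in Vanillin minus Sham. Of all named genes, 39.3% were called higher and 25.3% lower in Sham minus Mock, and 17.4% higher and 35.1% lower in Vanillin minus Sham. In Vanillin minus Mock the shares were 26.8% and 28.5%. Counts of the other gene lists are to be read beside the same shares. The same Sham arrays enter both Sham minus Mock and Vanillin minus Sham, which by itself sets the 2 against each other.

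Genes that respond to ERK or feed back on it were read from a list of 26, of which 21 were measured. Spry1, Spry2, Spry4, Myc and Areg were not found among the named genes, so nothing is said of them. Etv1 counts as measured but was very dim (mean intensity 12 in Vanillin, 14.4 in Sham and 13.4 in Mock). In Sham minus Mock 9 of the 21 rose, 5 fell and 7 were not called (median 0.06). The ETS factor gene Etv5 rose by 2.81 (SE 0.049), Phlda1 by 2.48 and the ErbB ligand gene Ereg by 1.51, while the early growth response gene Egr2 fell by 3.93. In Vanillin minus Mock 15 rose, 3 fell and 3 were not called (median 0.42), with Etv5 at 2.02, Phlda1 at 2.28, Ereg at 1.76 and the AP-1 gene Fosl1 at 1.33. Egr2, Fosb and Spred3 were called lower in both groups against Mock, so the list did not move 1 way. All named genes had medians of 0.11 between Sham and Mock and -0.001 between Vanillin and Mock.

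In Vanillin minus Sham 8 of the 21 rose, 4 fell and 9 were not called (median 0.11). The 3 immediate early genes among the 4 with the smallest p rose: Egr2 by 3.57, Egr1 by 0.94 and Fosb by 0.82. Etv5 fell by 0.80. Of the other early genes in this list, Fos and Junb rose (0.51 and 0.37) and Egr3 was not called (-0.07). Jun and Atf3, early genes read with the JNK and p38 effectors below, fell (-0.65 and -0.58). Egr2, Egr1 and Fosb had fallen in Sham minus Mock, at -3.93, -0.69 and -1.25, beside -0.27 for Dusp1 and -0.32 for Dusp5. Against Mock they differed: Egr1 was 0.25 higher in Vanillin, whereas Egr2 and Fosb were lower (-0.36 and -0.43). Dusp1 and Dusp5 were higher in Vanillin than in Mock.

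**Figure D4:**
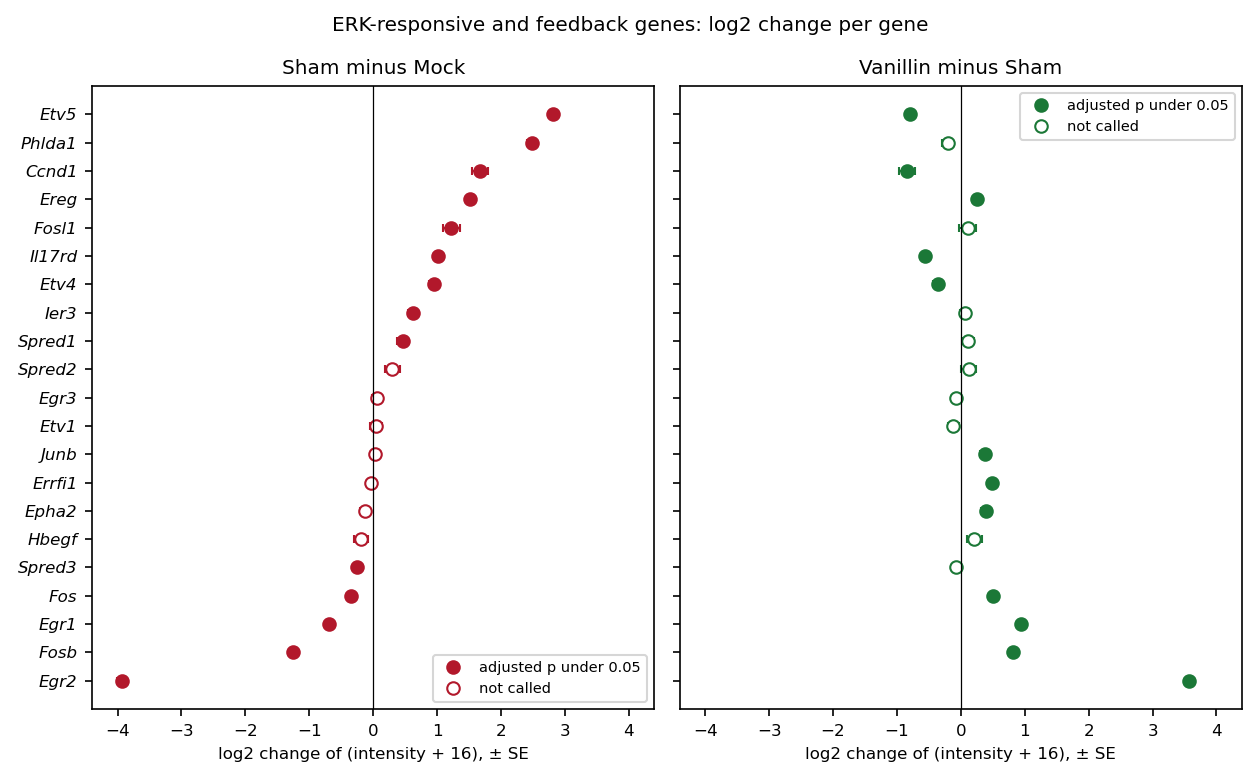
Log2 change (x axis, with SE bars) of the 21 measured ERK-responsive and feedback genes, sorted by Sham minus Mock (left panel), with Vanillin minus Sham on the right. Filled points were called. Etv5 (2.81) and Phlda1 (2.48) lead the left panel, and Egr2 lies at -3.93 on the left and 3.57 on the right.

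Of 8 measured ERK, JNK and p38 genes, 1 rose, 4 fell and 3 were not called in Sham minus Mock (median -0.08). Mapk12, the p38 gamma gene of skeletal muscle, fell by 2.13, beside the loss of skeletal muscle markers given above, and the JNK2 gene Mapk9 rose by 0.35. The probe of the ERK1 gene Mapk3 had a mean intensity of 0.59 in Vanillin, -0.46 in Sham and -0.074 in Mock, which is no signal, so nothing is said of its change. In Vanillin minus Sham 1 rose, 2 fell and 5 were not called, with Mapk12 at 0.80 and Mapk9 at -0.46. Of 7 MAP kinase kinases, 2 fell and 5 were not called in Sham minus Mock, among them the p38 activators Map2k6 (-1.06) and Map2k3 (-0.33), the 2 that fell. In Vanillin minus Sham 1 rose, 1 fell and 5 were not called, a count of 2 that was 1 with only the 6 arrays compared and without Mock replicate 3, Sham replicate 1, Sham replicate 2, Vanillin replicate 2 or Vanillin replicate 3. Map2k7 was not called there on its brightest probe (0.12), but another of its probes was called lower (-0.48).

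Among 19 JNK and p38 effectors and scaffolds, Sham minus Mock gave 4 that rose, 7 that fell and 8 not called (median -0.04). The AP-1 gene Jun rose by 1.35 and the scaffold gene Mapk8ip2 by 0.92, and the p38-activated kinase genes Mapkapk3 and Rps6ka4 fell by 0.64 and 0.75. In Vanillin minus Sham 4 rose, 7 fell and 8 were not called. Zfp36, whose protein speeds the decay of cytokine mRNAs, had the smallest p and rose by 0.83 (SE 0.068), beside a Sham minus Mock value of -0.02 (adjusted p = 0.81). Jun fell by 0.65 in Vanillin minus Sham.

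Other phosphatases were read in the same way. Of 16 measured atypical dual-specificity phosphatases, 5 rose, 6 fell and 5 were not called in Sham minus Mock (median -0.06). Dusp13 counts as not called on its brightest probe (-0.09), but its other probes were called lower there (-1.64 and -0.85). Dusp14, Dusp22 and Dusp26 fell, with changes of -2.37 and -2.21 for Dusp14 and Dusp22 and mean intensities of 133 in Sham and 406 in Mock for Dusp26. Dusp19 rose by 0.70. In Vanillin minus Sham 4 rose, 2 fell and 10 were not called, with Dusp14 at 1.34, Dusp22 at 1.27, Dusp23 at 0.70 and Dusp19 at -0.57. Dusp14 and Dusp22 thus had the group order of Dusp7 and of the squamous epithelium markers, and the part of that tissue was not tested. In Sham minus Mock, a list of 8 tyrosine and serine/threonine phosphatases with MAP kinase substrates gave 3 higher, 3 lower and 2 not called. Ppm1b counts as not called on its brightest probe, but its other probes were called in opposite directions (-0.19 and 0.34). The leukocyte phosphatase gene Ptpn7 rose by 1.08 and the neuronal Ptpn5 fell by 1.43.

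Dusp1 is also a textbook target of glucocorticoids, so 13 other genes that these hormones induce were set beside it. In Vanillin minus Sham 4 rose, 4 fell and 5 were not called (median -0.07, beside -0.11 for all named genes). Pdk4 rose by 1.05, while Lcn2, Ddit4 and Cebpd fell by 0.33, 0.59 and 0.24. Mt1, among those not called, lay near the top of the intensity scale (60328.5 in Vanillin, 63447 in Sham and 65427 in Mock), where differences may be compressed. The glucocorticoid marker Tsc22d3, named after its values were seen, was 0.17 higher in Vanillin minus Sham (adjusted p = 0.022) and had fallen by 0.97 in Sham minus Mock. Of others also named with their values seen, Per1 rose by 0.34 in Vanillin minus Sham. Fkbp5, Zbtb16 and Klf9 were not called there (-0.18, -0.08 and -0.06). In Sham minus Mock 4 of the 13 rose, 5 fell and 4 were not called.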

How the data were processed

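Colon RNA was amplified and labelled with Cy5, per the labels, and limma was used in the authors' processing, per the submitters' processing notes, with its role not given. The deposited values are probe intensity on a linear scale. The values show background subtraction (3 to 14 probes per array below 0) and quantile normalization across the 9 arrays, with log2 quartiles that differed by at most 0.0128. Scanner and probe filter are not stated in the labels. No depth applies to arrays: their number limits the precision.

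Negative values were set to 0, and log2(value + 16) was fitted with 3 group means over all 9 arrays (lmFit and eBayes of limma 3.58.1, run in R 4.3.3, 2-sided, 6 residual and 2.69 prior degrees of freedom). The script was tested on simulated data. Of the probes, 20377 have 1 gene symbol, 0 have several and 6046 have none, and 2126 older symbols were updated through RefSeq synonyms. For genes with more than 1 probe, the brightest was used. Other probes of some list genes differed in their calls, among them those of Dusp13, Map2k7, Ppm1b, Spred2 and Gadd45b. All 10 members are named whatever their values, as are up to 4 genes with the smallest p of each pathway list, and the 3 nearest profiles of members whose group means span at least 1. Members, lists and tests were chosen with earlier results of these data known. Promoter windows are from RefSeq (GRCm38.p6). Figures used matplotlib 3.10.9. Alternatives changed the added value, the probe filter, the normalization, the arrays fitted, the variance prior, array weights, a replicate block, the probe summary and each array in turn.

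Same-numbered arrays of different groups had correlations of their deviations from the group means of -0.29 to 0.20, so the numbers were not taken to pair the arrays.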

Additional observations from a re-analysis of the deposited data

How the results depend on the processing

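Over 18 alternatives per comparison, the number of phosphatase genes called was 9 to 10 in Sham minus Mock (9 as reported), 5 to 7 in Vanillin minus Sham (7 as reported) and 7 to 8 in Vanillin minus Mock (7 as reported). Of 591 single-probe values under an alternative, 576 kept their direction and their side of the threshold, 9 lost a call, 5 gained one and 1 changed sign. Many alternatives leave the log2 change itself as it was, so only the call could change there. These are the probe filter, the 6 arrays compared, the variance prior, the replicate block and leaving out an array of the third group. Averaging probes does so too for genes with 1 probe. The sign change is that of Dusp16 in Vanillin minus Mock, 0.10 on its brighter probe and -0.14 with both probes averaged, since the probes moved in opposite directions. The calls lost were those of Dusp8 and Dusp2 in Vanillin minus Sham, and those gained were of Dusp10 in Sham minus Mock, Dusp4 in Vanillin minus Sham and Dusp2 in Vanillin minus Mock, with the values given above. The cause was not tested. With the replicate block, 10 phosphatase genes were called in Sham minus Mock, 6 between Vanillin and Sham and 7 between Vanillin and Mock, and 3 of 9 arrays correlated best with an array of their own number. Counts of other phosphatases acting on MAP kinases called in Vanillin minus Mock were 8 as fitted and 5 without Mock replicate 1, Mock replicate 2 or Vanillin replicate 3. The glucocorticoid-induced count there was 10, and 6 without Vanillin replicate 2. The MAP kinase kinase count there was 4, and 2 without Mock replicate 2. The JNK and p38 phosphatase count in Vanillin minus Mock was 1, and 2 with probes averaged. In Sham minus Mock, 6 enteric neuron and glia markers were called, and 3 without the dimmest 30% of probes, which leaves fewer of them tested.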
